A study of Mus musculus with 3 samples.

Results

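Cells carrying transcripts of the sebaceous gland were examined in 3 single-cell libraries of mouse dorsal skin. A cell was a member when it had at least 300 genes, at most 20% mitochondrial UMIs (unique molecular identifiers, 1 per captured transcript) and at least 1 UMI in 4 or more of 8 sebaceous genes, Mgst1, Cidea, Mc5r, Awat2, Dgat2, Far2, Scd3 and Elovl4, among them Cidea, Mc5r or Awat2. The rule found 267 members among 24858 kept cells. Of these, 90 came from the 10428 kept cells of the normal library, 115 from the 8008 of the imiquimod library and 62 from the 6422 of the library treated with both agents. The members were chosen by these measured UMIs, so the levels of its 8 genes are descriptions.

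All 3 libraries came from C57BL/6 mice aged 7 weeks, with no allele named in the labels. The normal group received glycerin as its control treatment, the second imiquimod, a Toll-like receptor agonist that provokes a psoriasis-like dermatitis, and the third both imiquimod and the plant triterpenoid celastrol. The study asked how celastrol acts on that dermatitis. Each group was 1 library and the labels do not say how many mice it pooled, so no difference between groups has a replicate check, and the intervals given cover counting error only. Levels are counts per 1000000 UMIs (CPM), summed over the cells named, and a ratio of at least 2 is called past 2-fold.

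Sebocytes are the lipid-filled epithelial cells of the sebaceous gland, which opens into the upper hair follicle. They arise from basal progenitors at the gland's edge, fill with wax esters, triglycerides and cholesterol esters as they move inward, and release this sebum by bursting, which is called holocrine secretion. PPAR gamma drives their differentiation, and melanocortins act on them through the receptor Mc5r.

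The label held for most normal members and for few members of the other libraries. In the normal library the 8 rule genes made up a median of 0.532% of a member's UMIs (0.0243 to 5.05%). The medians were 0.0716% (0.0167 to 2.96%) in the imiquimod library and 0.0719% (0.0113 to 1.73%) with celastrol. Imiquimod and celastrol members were also deeper, with a median of 42420 and 40930 UMIs against 16652 in normal members, while all kept cells had medians of 9067, 10776 and 5985.5. Members with at least 0.5% of their UMIs from the rule genes numbered 48 normal, 3 imiquimod and 3 with celastrol. The rule chose the cells by these 8 genes, so these shares are descriptions. Genes that the rule did not use gave the same split. The summed level of the other sebaceous genes (Scd1, Elovl3, Elovl6, Soat1, Pparg and others, Krt79 left out) reached 5000 CPM in 81 of 90 normal members, 17 of 115 imiquimod members and 11 of 62 members with celastrol. So did 135 of 10338 normal cells that were not members, 15 of 7893 with imiquimod and 11 of 6360 with celastrol. The rule thus missed many such cells. That limit was set after the values were seen.

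**Figure D1:**
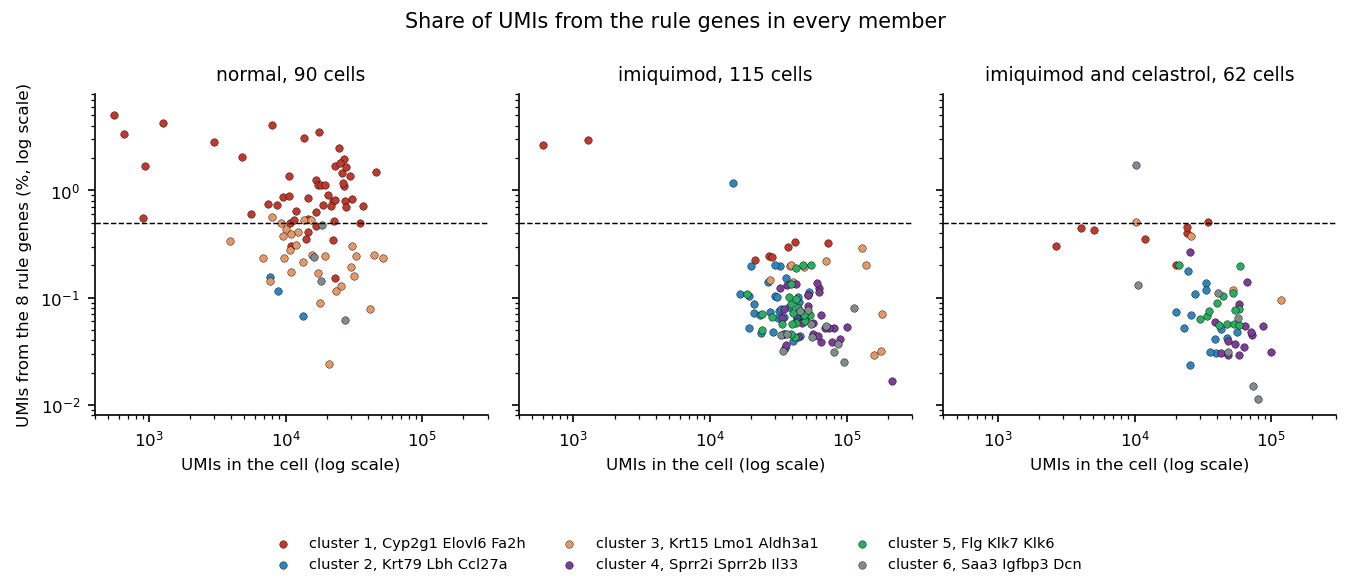
Each point is 1 member: UMIs in the cell (log scale) against the percent of its UMIs from the 8 rule genes (log scale), 1 panel per library, coloured by cluster, with a dashed line at 0.5%. Of the 90 normal members 48 lie on or above the line, against 3 of 115 imiquimod members and 3 of 62 with celastrol, which lie to the right at higher UMI counts.

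At the edge of the rule the libraries differed in the same way. In the normal library, 63 cells with 3 rule genes and 1 of the required genes stood just outside, with a median of 0.136% of UMIs from the rule genes and 5393 CPM of the other sebaceous genes. Just inside, 47 normal members with exactly 4 rule genes had 0.310% and 10083 CPM. In the imiquimod library, 38 cells just outside had 0.0718% and 1339 CPM, and 84 members just inside had 0.0659% and 933.7 CPM. With celastrol the values were 0.0382% and 951.1 CPM in 42 cells outside and 0.0613% and 1159 CPM in 50 cells inside. Within the members, the other sebaceous genes climbed with the number of rule genes from 4 to 6 in every library. The 23 imiquimod members with 5 rule genes had 2630 CPM and the 7 with 6 had 8971, and with celastrol the 8 members with 5 had 4948 and the 4 with 6 had 12422. Normal members with 5 and 6 rule genes had 17707 and 23976 CPM. The 4 normal members with 7 had 27940 CPM, and the 1 imiquimod member with 7 had 5412.

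Free RNA and detection depth were measured beside the rule. Cells past the fibroblast cut (Col1a1, Col1a2, Col3a1 and Dcn together at 1% or more of UMIs), which should lack these genes, had a UMI of Cidea, Mc5r or Awat2 in 0.568% of 2994 normal cells, 0.538% of 3346 imiquimod cells and 0.668% of 2395 cells with celastrol, members included. Of these, 3, 2 and 3 cells were members. Cells with Krt5 and Krt14 at 1% or more of UMIs had such a UMI in 1.19% of 1511 normal cells (median 8365 UMIs), 10.1% of 1253 imiquimod cells (median 39750) and 4.56% of 1687 with celastrol (median 28624), and 3, 80 and 38 of them were members. With members left out the shares were 0.995, 4.01 and 2.37%. Cells past the fibroblast cut had medians of 4460, 9309 and 9300 UMIs. The part of depth in the imiquimod members was not tested beyond the thinned shares given with the library comparison. Libraries shared 26 barcodes (normal and imiquimod), 15 (normal and celastrol) and 23 (imiquimod and celastrol), and 1 member in each library carried a shared barcode.

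Markers of neighbouring epithelium moved with the libraries. The 5 sebocyte markers (Mgst1, Cidea, Mc5r, Awat2, Scd3) summed to 5269 CPM in normal members, 521.9 in imiquimod members and 412.8 with celastrol. The 8 upper follicle and duct markers, Krt79 and Cst6 among them, summed to 4566, 16230 and 23893 CPM, and all 8 were detected in each library. The 7 basal keratinocyte markers summed to 3796, 15959 and 17109 CPM, and the 7 suprabasal markers to 1024, 12791 and 15814. Per cell, the basal sum ran from 0 to 20895 CPM in normal members (median 2598), from 2752 to 33997 in imiquimod members (median 13693) and from 488.3 to 39043 with celastrol (median 13128). Krt5 and Krt14 reached 1% of UMIs in 3 normal members, 80 imiquimod members and 38 members with celastrol. Krt16, a keratin of activated epidermis, reached 1000 CPM in 1, 85 and 40 members. Of the 7 adipocyte markers, Adipoq, Lep, Cfd, Plin1 and Pck1 were at 0 in all 3 sets of members, and the list summed to 1.25, 0.519 and 12.4 CPM, from Retn and Adrb3. Fibroblast markers summed to 1584 CPM in normal members, 767.9 in imiquimod members and 931.8 with celastrol. Their medians per cell were 24.4, 27.5 and 173.0 CPM and the highest normal cell had 64061, so a few normal cells hold that sum.

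Clustering of the 267 members without the 8 rule genes gave 6 groups at a resolution of 0.5, against 4 at 0.3, 7 at 0.8 and 9 at 1. Cluster 1, with 69 cells (53 normal, 8 imiquimod, 8 with celastrol), was led by Cyp2g1, Elovl6, Fa2h, Elovl3, Paqr7, Cers4, Mgll, Scd1, Cyp17a1 and Soat1, and is called sebocyte-like, with the rule genes at a median of 0.741% of UMIs. Cluster 3, with 45 cells (30, 11 and 4), was led by Krt15, Lmo1 and Aldh3a1 and had a median of 0.220%. The remaining clusters held few or no normal cells. Cluster 2 (3, 31 and 14 cells) was led by Krt79, Lbh, Ccl27a, Defb6 and Cst6, cluster 4 (0, 30 and 15) by Sprr2i, Sprr2b and Il33, cluster 5 (0, 23 and 14) by Flg, Klk7 and Klk6, and cluster 6 (4, 12 and 7) by Saa3, Igfbp3 and Dcn. Of the 23 cells of cluster 6, 17 were among the cells with the highest doublet scores. Clusters 4 and 5 came from the 2 imiquimod-treated libraries alone, so a cell state and a library cannot be told apart there.

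Lipid genes separated the clusters by large factors. Soat1, which esterifies cholesterol, stood at 1714, 405.8, 1.34, 0.366 and 0 CPM in clusters 1, 3, 2, 4 and 5. Elovl3, an elongase of saturated fatty acids, stood at 1054, 122.4, 6.70, 0 and 0 CPM in the same order. The keratins ran the other way. In that order Krt14 stood at 2771, 5107, 13196, 21985 and 12222 CPM. Clusters 2, 4 and 5 thus met the rule while carrying epidermal or upper follicle transcripts, and are described by number or leading genes. These genes took part in the clustering, so the values describe it.

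**Figure D2:**
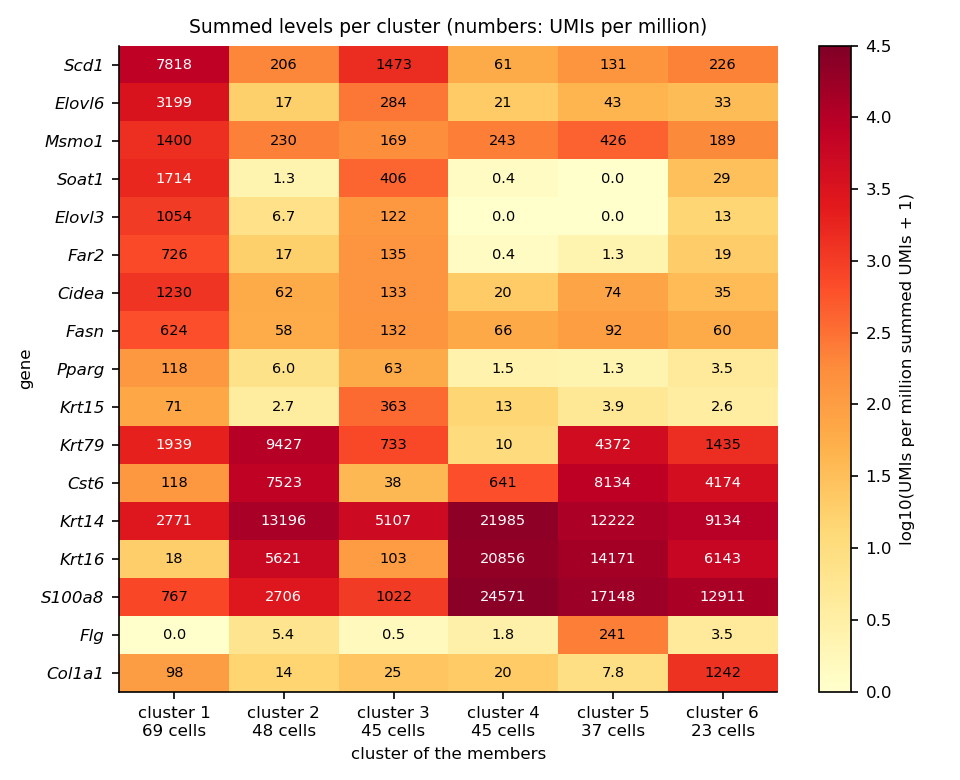
Rows are genes, columns are the 6 clusters of the 267 members, and colour and printed numbers give summed CPM (colour on a log10 scale after adding 1). Scd1, Soat1, Elovl3 and Far2 are highest in cluster 1 and next in cluster 3, and Krt16 exceeds 5000 CPM in clusters 2, 4, 5 and 6.

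Normal members carried the rule genes unevenly. Mgst1, a microsomal glutathione transferase, was present in all 90 cells, with a lowest, median and highest level of 74.5, 3665 and 17041 CPM. Cidea, a lipid droplet protein, was present in 89 cells, at 0, 697.9 and 6390 CPM. Far2, which reduces fatty acyl-CoA to the fatty alcohols of wax esters, was present in 82 cells, at 0, 266.2 and 3934. These 3 genes covered nearly every normal member. Dgat2, which makes triglycerides, was present in 70 cells and Awat2, a wax synthase, in 44. Mc5r, the melanocortin receptor, was found in 11 cells with 16 UMIs in all, and Scd3, a desaturase, in 9 cells with 21 UMIs. Elovl4, an elongase of very long chains, was present in 34 cells only, yet at a summed 1546 CPM. The treated members carried a different mix, with Mgst1 again in every cell. Of 115 imiquimod members, 107 had Elovl4 (median 272.2 CPM), 104 Dgat2, 103 Cidea (median 30.8), 31 Far2 and 26 Awat2. Of 62 with celastrol, 53 had Elovl4 (median 302.5), 54 Dgat2, 57 Cidea (median 46.8), 16 Far2 and 14 Awat2.

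The bases upstream of 3 genes are shown because each takes part in making sebum esters and was near 0 in normal keratinocytes. Far2 makes fatty alcohols, Awat2 wax esters and Soat1 cholesterol esters. Each run is the 250 bases before a RefSeq start on GRCm38.p6, for Awat2 the first of 2 listed, read 5′ to 3′ on the gene's strand, with the CCAAT box in capitals.
Far2, chr6:148047166-148047415, plus strand: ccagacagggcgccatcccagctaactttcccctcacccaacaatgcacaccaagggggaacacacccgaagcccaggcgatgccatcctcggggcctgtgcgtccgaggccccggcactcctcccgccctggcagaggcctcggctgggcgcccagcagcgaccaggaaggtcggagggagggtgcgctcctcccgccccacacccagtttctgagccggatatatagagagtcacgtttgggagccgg
Awat2, chrX:100442718-100442967, minus strand: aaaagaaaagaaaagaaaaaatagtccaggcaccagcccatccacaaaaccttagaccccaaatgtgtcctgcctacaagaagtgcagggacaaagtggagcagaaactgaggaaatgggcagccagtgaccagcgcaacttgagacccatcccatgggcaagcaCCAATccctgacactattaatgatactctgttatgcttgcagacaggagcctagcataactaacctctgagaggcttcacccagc
Soat1, chr1:156474329-156474578, minus strand: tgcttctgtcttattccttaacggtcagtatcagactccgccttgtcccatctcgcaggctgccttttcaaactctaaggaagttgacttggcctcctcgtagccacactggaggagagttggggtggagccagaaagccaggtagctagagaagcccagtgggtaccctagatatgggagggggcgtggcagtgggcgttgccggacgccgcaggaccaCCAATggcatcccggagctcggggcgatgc
Far2 had none of the 3 motifs searched, and Awat2 and Soat1 had CCAAT once each in these bases. The motifs were CCAAT, the sterol element TCACNCCAC and the nuclear receptor repeat of AGGTCA and AGGTCA with 1 base between, on both strands of 300 bases that include 50 after the start. CCAAT was found in 14 of the 16 matched promoters of the cholesterol list (87.5%), 10 of 16 of the other sebaceous genes (62.5%), 7 of 15 of fatty acid synthesis (46.7%) and 5 of 14 of wax ester and triglyceride synthesis (35.7%), against 10248 of 27025 promoters in all (37.9%). TCACNCCAC was found in 1.22% of all promoters and, within the cholesterol list, in Hmgcs1 alone. The nuclear receptor repeat was found in 12 of 27025 and in none of these lists. A match describes the letters in the window and is not a site.

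Against other cells of the normal library, normal members carried a broad lipid program. The comparators were 1407 keratinocytes (Krt5 and Krt14 at 1% or more of UMIs, without upper follicle cells and cells past the fibroblast cut) and 683 upper follicle cells (a UMI of both Krt79 and Cst6), none of them members. Over keratinocytes, 11574 genes had the 20 UMIs needed, of which 16.3% were past 2-fold higher and 13.5% past 2-fold lower in members, with a median log2 ratio of 0.10. The split was 1881 higher to 1560 lower, and 1372 to 2019 after scaling to the median gene ratio. Over upper follicle cells, 11233 genes were measured, with 10.2% higher and 14.4% lower and a median of -0.02. The rule chose these cells by sebaceous genes of the same libraries, so the counts are descriptions.

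Other sebaceous genes, outside the rule, were past 2-fold higher over keratinocytes in 15 of 15 measured genes (median log2 ratio 7.67) and over upper follicle cells in 14 of 15 (median 6.09). Scd1, the stearoyl-CoA desaturase, stood at 5663 CPM in members, 44.5 in keratinocytes and 83.0 in upper follicle cells, a ratio over keratinocytes of 127 (117 to 139). Soat1 stood at 1173, 1.55 and 14 CPM, a ratio of 757 (488 to 1242). Elovl3 stood at 739.9, 0.620 and 2.09 CPM, a ratio of 1193 (603 to 2770). All 3 were thus far above both comparators. Krt79, a keratin of the upper follicle and duct, was the exception. It stood at 1387 CPM in members, 34.7-fold above keratinocytes (31.5 to 38.3), and 3.9-fold below upper follicle cells at 5412 CPM. The upper follicle cells were chosen by a UMI of Krt79 and Cst6 and were left out of the keratinocytes. Both ratios of Krt79 thus partly follow from how the comparators were defined. Counts of Scd1 to Scd4, near-identical genes beside each other on chromosome 19, may be split between copies and are uncertain for each.

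Genes that build and lengthen fatty acids were high. Of the fatty acid synthesis list, 13 of 14 measured genes were past 2-fold higher over keratinocytes and none lower (median 3.94). Fasn, the fatty acid synthase, stood at 453.9 CPM against 26.6, a ratio of 17.1 (15 to 19.5). Acacb, an acetyl-CoA carboxylase, stood at 122.4 against 1.09, a ratio of 113 (65.6 to 210). Slc25a1, the mitochondrial citrate exporter, and Acly, which splits citrate, stood at 405.9 and 374.6 CPM. Desaturases and elongases were higher in 12 of 16 and lower in 2 (median 3.54), and in 10 of 14 and 2 (median 2.88) without the rule genes Scd3 and Elovl4. Elovl6 reached 2494 CPM against 12.2, a ratio of 204 (174 to 240). The 2 lower genes were Elovl1 and Elovl7, so the elongases did not all go one way.

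Wax ester and triglyceride genes were past 2-fold higher in 12 of 16 and lower in 1 (median 3.35). Without the rule genes Far2, Awat2 and Dgat2, which chose the cells, 9 of 13 were higher and 1 lower (median 1.97). Far2 stood at 513 CPM and had no UMI in 1407 keratinocytes, at least 2207-fold higher. Awat2 stood at 48.1 and Awat1, the neighbouring wax synthase on chromosome X, at 78.7 CPM. Neither had a UMI in keratinocytes, which puts them at least 207-fold and at least 338-fold higher. Agpat2 and Dgat1, steps toward triglyceride, stood at 141.1 and 123.6 CPM, 8.92-fold (7.35 to 10.8) and 11.7-fold (9.38 to 14.7) above keratinocytes. Far1, the related reductase, stood at 26.2 CPM against 35.1 in keratinocytes and did not pass 2-fold.

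Cholesterol genes were high as a group. Of 23 measured genes, 18 were past 2-fold higher over keratinocytes and 1 lower (median 2.84), and over upper follicle cells 17 were higher and 1 lower (median 2.28). Msmo1, a sterol methyl oxidase, stood at 1108 CPM in members, 107.6 in keratinocytes and 140.6 in upper follicle cells, a ratio over keratinocytes of 10.3 (9.59 to 11.1). Mvd, the mevalonate diphosphate decarboxylase, stood at 246.6 CPM against 5.12 in keratinocytes, a ratio of 48.2 (37.1 to 63.5). Hmgcs1, an early synthase of the pathway, stood at 1083 CPM and 4.63-fold (4.36 to 4.91). The lower gene was Sc5d, a sterol desaturase, at 9.99 CPM against 29.2.

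Droplet, uptake and peroxisome genes followed. Lipid droplet genes were past 2-fold higher over keratinocytes in 9 of 11 (median 2.73), or 8 of 10 (median 2.70) without the rule gene Cidea, led in level by Plin2, the droplet coat protein, at 1546 CPM and 59.2-fold (52.8 to 66.5). Fatty acid uptake genes were higher in 8 of 13 and lower in 2 (median 2.82). Fabp5, a fatty acid binding protein, was the most abundant gene of the lipid lists at 16491 CPM against 326.3. Peroxisome and fatty acid oxidation genes were higher in 18 of 24 and lower in 1 (median 2.09). Acaa1b, a peroxisomal thiolase, stood at 115 CPM against 0.233, a ratio of 494 (166 to 2417), though its near-identical copy Acaa1a may share counts. Acaa2, its mitochondrial counterpart, stood at 433.9 CPM and 4.28-fold (3.89 to 4.69).

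Transcription factors were split. Of 23 measured, 9 were past 2-fold higher over keratinocytes (among them Pparg, Nr1h3, Gata6, Cebpa, Srebf1, Cebpb, Ppara and Prdm1) and 2 lower (median 0.62). Pparg stood at 95.5 CPM in members, 0.465 in keratinocytes and 5.81 in upper follicle cells, a ratio over keratinocytes of 205 (92.2 to 568). Srebf1, which turns on lipid synthesis genes, stood at 180.4 against 28.4, a ratio of 6.36 (5.43 to 7.44). Cebpb was the most abundant at 2637 CPM. Gata6, a factor of the upper follicle and duct, stood at 11.9 CPM against 0.930 in keratinocytes and 73.2 in upper follicle cells. Among hormone and steroid genes, 8 of 14 were higher and 3 lower. The prolactin receptor gene Prlr stood at 218.5 CPM and 7.17-fold above keratinocytes (6.19 to 8.30). Hsd3b6, a steroid dehydrogenase, stood at 66.8 CPM with no UMI in keratinocytes.

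Lists outside lipid metabolism went different ways. Lysosome and nuclease genes were past 2-fold higher in 3 of 17 and lower in 5 (median -0.24), with Ctsd, a lysosomal protease, 3.91-fold higher (3.61 to 4.23). Glutathione and NRF2 genes were higher in 13 of 25 and lower in 3 (median 1.16), and in 12 of 24 and 3 (median 0.99) without the rule gene Mgst1. Antimicrobial genes were higher in 4 of 16 and lower in 8 (median -0.74). Epidermal activation genes were higher in 1 of 14 and lower in 9 (median -2.02), and cell cycle genes were higher in 0 of 20 and lower in 6 (median -0.87). Markers of macrophages and dendritic cells summed to 792 CPM in normal members, with a median of 0 per cell and a highest cell at 22908, so a few members carried them. Their part in the antimicrobial counts was not tested.

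**Figure D3:**
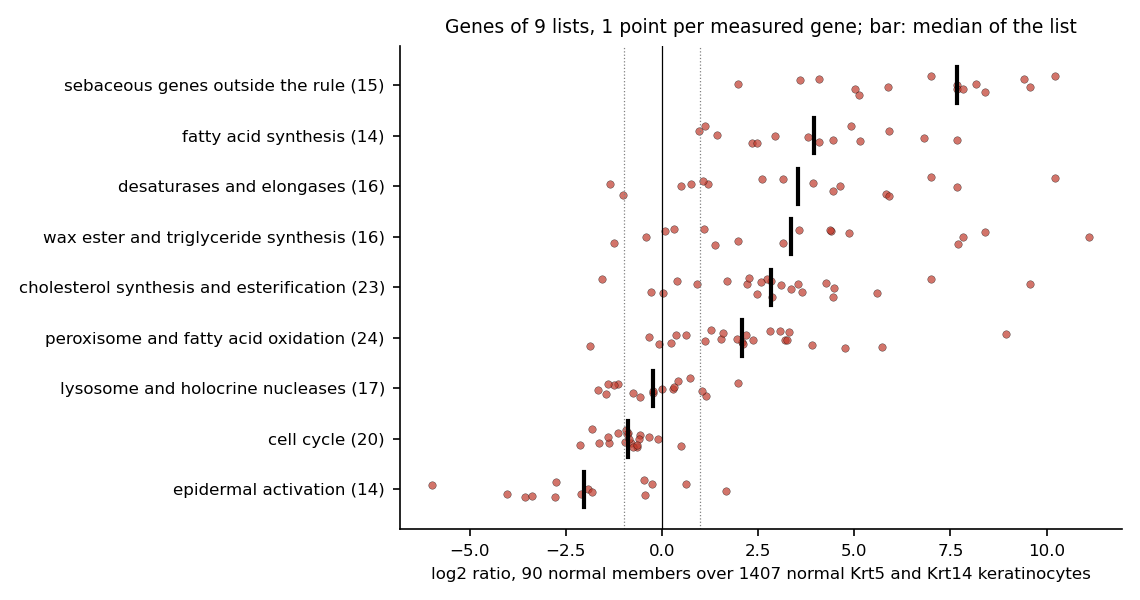
Each point is 1 measured gene of 9 lists, placed at its log2 ratio of summed CPM in 90 normal members over 1407 normal keratinocytes, and bars are list medians. The lipid lists lie to the right, with medians from 2.09 for peroxisome genes to 7.67 for other sebaceous genes.

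Among all genes seen in at least 50% of normal members, those of highest ratio over every other kept cell of the normal library were led by Fa2h, which adds a hydroxyl group to fatty acids. Fa2h had 1264 UMIs in 67 members, 789.2 CPM against 1.52, a ratio of 518 (428 to 632). Cyp17a1, a steroid hydroxylase, stood at 281.6 CPM against 2.69, a ratio of 105 (88.4 to 124). The 12 genes were Fa2h, Far2, Elovl3, Cidea, Clstn3, Acoxl, Cyp17a1, Ces1d, Adig, Elovl6, Tmem45b and Soat1, with ratios from 518 down to 70.9. Far2 and Cidea were used by the rule.

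The normal members fell into a pair of clusters when clustered alone. The first held 47 cells, all inside cluster 1 of the whole set, with the rule genes at a median of 1.10% of UMIs, and the second held 43 cells with 0.245%. The genes below took part in that clustering, so their values describe it. Of 6900 genes measured, 9.78% were past 2-fold higher in the first and 11.4% lower (median -0.02). Cholesterol genes were higher in 21 of 22 (median 2.39), fatty acid synthesis genes in 9 of 13 (median 2.44) and other sebaceous genes in 9 of 15 (median 2.77). Msmo1 stood at 1965 against 174.8 CPM, a ratio of 11.2 (9.42 to 13.5), and Scd1 at 9636 against 1335. Slc27a4, a fatty acid transporter, stood at 515.0 against 5.22 CPM, a ratio of 98.7 (38.3 to 364). The second cluster was still sebaceous. Its other sebaceous genes summed to 7182 CPM, against 825.8 in normal cells that are not members.

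Several regulators and the droplet coat were alike in both. Pparg stood at 105.4 CPM in the first and 84.8 in the second, a ratio of 1.24 (0.892 to 1.74). Srebf1 stood at 177.2 and 183.9, Cebpb at 2526 and 2759, and Plin2 at 1747 and 1327. Of 19 transcription factors measured, 0 were past 2-fold higher in the first cluster and 4 lower. Cell cycle genes were lower in 9 of 19 (median -0.95), with Stmn1, a microtubule regulator of dividing cells, at 312.6 against 706 CPM. Among genes with a UMI in at least 50% of the second cluster, those lower in the first included Dusp1 (9.83-fold, 6.99 to 14.2), Aldh3a1 (8.81-fold, 5.64 to 14.4), Krt10 (7.94-fold, 5.33 to 12.2) and Krt17 (6.61-fold, 5.65 to 7.77). Genes of fewer cells were lower still. Cst6 and Defb6, of the upper follicle and duct, were 40.3-fold (31.9 to 51.6) and 21.6-fold (15.9 to 30) lower, with a UMI in 16 and 12 cells of the second cluster. The second cluster held 11 of the 14 normal members with the highest doublet scores, and their part in these values was not tested. Splitting the normal members at their median share of Krt5 and Krt14 gave a weaker contrast, with 4.01% of genes higher and 5.13% lower.

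Elovl4, a rule gene, marked a small set within the normal members. It had no UMI in 56 cells, stood under 100 CPM in 7, from 100 to under 1000 in 9 and at 1000 or more in 18, with a highest cell at 41516 CPM. The limit of 1000 was set after these values were seen. Of the 18 cells, 17 belonged to the first normal cluster. Against the other 72 normal members, 9.01% of 6900 genes were past 2-fold higher and 16.2% lower (median -0.12). Those 72 held cells of both normal clusters, so this contrast overlaps with that between the clusters. A comparison within the first cluster was not made. Awat1 stood at 423.1 against 4.55 CPM, a ratio of 92.9 (41.5 to 258), Cyp2g1 at 1562 against 34.1, a ratio of 45.7 (33.6 to 63.6), and Pnpla5, a lipase, at 267.9 against 6.83, a ratio of 39.2 (19.6 to 89.1). Acox3, a peroxisomal oxidase, was 18.6-fold higher (9.73 to 38.4). Pparg stood at 95.2 and 95.6 CPM in the 2 sets. Cholesterol genes were higher in 15 of 22 (median 1.29).

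**Figure D4:**
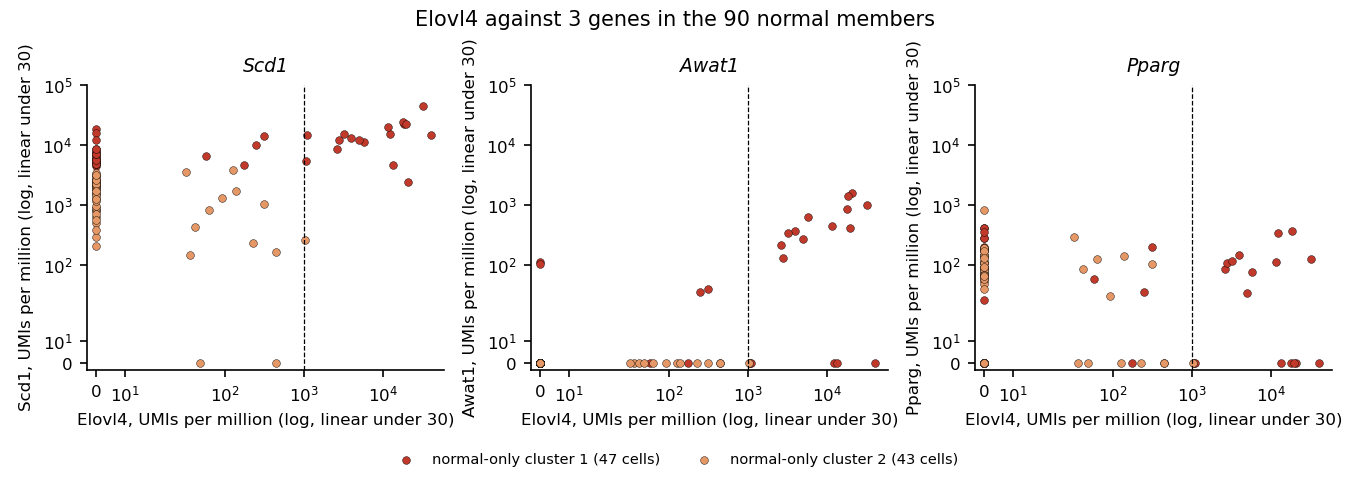
Each point is 1 of the 90 normal members: Elovl4 against 3 other genes, all in CPM on log axes that are linear under 30, coloured by normal cluster, with a dashed line at 1000. The 18 cells to the right of the line include 17 of the first cluster.

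Cluster 1 was then set side by side across libraries, with 53 normal cells, 8 imiquimod cells and 8 cells with celastrol, too few for a comparison of lists. Their median UMIs were 17228, 27882 and 15922, and the rule genes made up a median of 0.871, 0.309 and 0.418% of UMIs. Core genes of the gland were present in each. Pparg stood at 112.5 CPM (91.9 to 136.3) in normal cells, 134.6 (91.4 to 191.0) in imiquimod cells and 127.1 (72.6 to 206.4) with celastrol. Plin2 stood at 1756, 1923 and 1533 CPM, Cebpa at 574.3, 599.0 and 595.7, and Fabp5 at 24881, 24636 and 21136. For Pparg the 3 counting intervals overlap.

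Several other lipid genes, chosen after their values were seen, were lower in both treated libraries. Elovl6 stood at 4133 CPM (4003 to 4266) in normal cells, 408.0 (329.7 to 499.3) in imiquimod cells and 1446 (1243 to 1672) with celastrol. Msmo1 stood at 1791, 286.5 and 564 CPM, and Fa2h at 1308, 204.0 and 444.8. Scd1 differed less, at 8876, 5217 and 4814. Far2 stood at 818.8 (761.5 to 879.3), 390.6 (314.1 to 480.2) and 659.3 (525.1 to 817.3). In this order imiquimod cells were lowest for Elovl6, Msmo1, Fa2h and Far2. Idi1, an isomerase of sterol synthesis, was not lower in either, at 1400, 1723 and 1430 CPM. Serpina3b had 399 UMIs in 27 normal cells and none in the others. Elovl4 stood at 2639, 143.2 and 246.2 CPM, but 31 of 53 normal cells had none (median 0), against 2 of 8 imiquimod cells (median 142 CPM) and 4 of 8 with celastrol (median 100.1).

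Inflammatory transcripts were highest in the imiquimod cells for the 3 genes given here. S100a8, a neutrophil and keratinocyte alarm protein gene, stood at 6.49 CPM in normal cells, 4210 in imiquimod cells and 47.7 with celastrol. It was present in 5 of 8 imiquimod cells (highest 16863) and in 4 of 8 with celastrol (highest 196.5). S100a9, its partner, stood at 0, 1897 and 23.8 CPM, and Lcn2, a bacteriostatic lipocalin, at 77.9, 2700 and 190.6. Fibroblasts of the same libraries are given beside these cells. They do not measure free RNA alone, since imiquimod fibroblasts had far more Lcn2 than imiquimod keratinocytes, as given below. The part of free RNA was not tested. Imiquimod fibroblasts had 191 CPM of S100a8, 193.5 of S100a9 and 2569 of Lcn2, and fibroblasts with celastrol had 64.4, 60.4 and 194. With all cells summed, Lcn2 was at a like level in cluster 1 and in fibroblasts of both treated libraries. Of the 970 S100a8 and 437 S100a9 UMIs in the imiquimod cells, 705 and 388 came from 1 cell. Without it S100a8 stood at 1405 CPM (1241 to 1585), S100a9 at 259.8 (192.2 to 343.5) and Lcn2 at 1776 (1591 to 1977). S100a8 then remained above the fibroblast level, the interval of S100a9 included it, and Lcn2 stood below it. With celastrol S100a8 and S100a9 rested on 6 and 3 UMIs. Without the cell of highest S100a8, their intervals (13.4 to 96.6 and 5.12 to 72.6 CPM) included the fibroblast levels. Krt14 stood at 1965, 4201 and 6069 CPM. The 8 imiquimod cells were uneven: 2 had 600 and 1283 UMIs with 2.67 and 2.96% from the rule genes, and the other 6 had 0.226 to 0.330% at 21229 to 72815 UMIs. Cells of 1 library share that library, so library and treatment cannot be told apart.

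**Figure D5:**
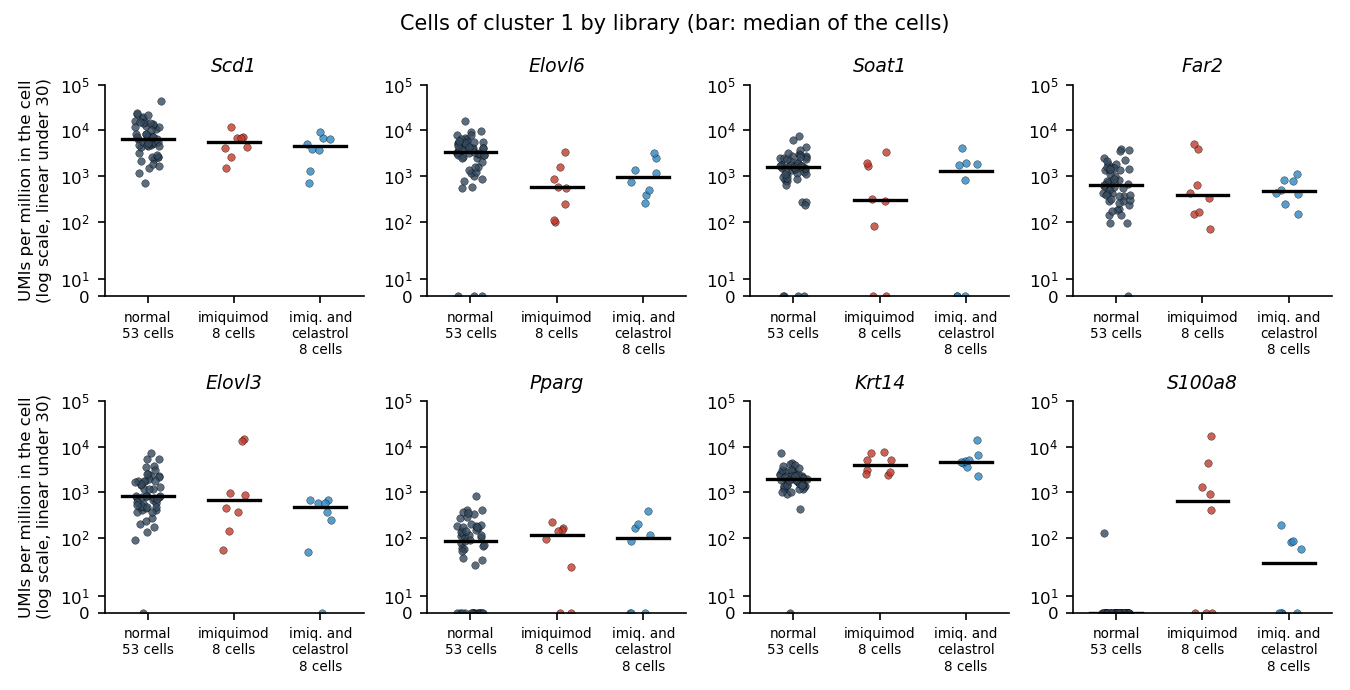
Each point is 1 cell of cluster 1, by library (53 normal, 8 imiquimod, 8 imiquimod and celastrol), in CPM on a log axis that is linear under 30, with the bar at the median of the cells. Elovl6 lies lower in both treated libraries than in normal cells, and Pparg overlaps across the 3. S100a8 is above 0 in 5 of the 8 imiquimod cells, 4 of the 8 with celastrol and 1 of the 53 normal cells.

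The share of cells that met the rule depended on how depth entered it. By the rule, members were 0.863% of normal cells (0.695 to 1.06%, exact Clopper-Pearson), 1.44% of imiquimod cells (1.19 to 1.72%) and 0.965% with celastrol (0.741 to 1.24%). With each cell thinned to 2000 UMIs, the mean share over 20 draws was 0.216, 0.0211 and 0.0704%, leaving out 1112, 673 and 452 shallower cells. At that depth the mean number of cells was 20.1, 1.55 and 4.2, ranging from 15 to 25, 0 to 5 and 2 to 7. Cells of any kind with at least 0.5% of UMIs from the rule genes were 0.700, 0.0500 and 0.0467%, from 73, 4 and 3 cells. Cells with 5000 CPM or more of the other sebaceous genes, members or not, were 216 of 10428 normal cells (2.07%, 1.81 to 2.36), 32 of 8008 imiquimod cells (0.40%, 0.273 to 0.564) and 22 of 6422 with celastrol (0.343%, 0.215 to 0.518). The imiquimod library was thus highest by the rule and far under the normal library by the settings that fix depth or share. Sebaceous glands lost, cells not captured and less RNA per cell cannot be told apart here.

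Over all members, the imiquimod and normal sets differed in which clusters held them: clusters 1 and 3 held 83 of 90 normal members, and clusters 2, 4 and 5 held 84 of 115 imiquimod members. Their levels therefore compare unlike cells that met one rule. Of 10478 genes, 12.5% were past 2-fold higher in imiquimod members and 19.2% lower (median -0.27), or 1307 higher to 2013 lower. After scaling to the median gene ratio the split turned to 1872 higher and 1167 lower with a median of 0.11. Other sebaceous genes were lower in 14 of 16 and higher in 0 (median -3.07), fatty acid synthesis genes lower in 11 of 14 (median -1.47), peroxisome genes lower in 17 of 24 (median -1.31) and cholesterol genes lower in 10 of 23 and higher in 2 (median -0.80). Epidermal activation genes were higher in 21 of 21 (median 6.28) and antimicrobial genes in 23 of 25 (median 3.07).

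Single genes showed the same contrast. Krt16 stood at 39.3 CPM in normal members, 10424 in imiquimod members and 12936 with celastrol, a ratio of imiquimod to normal of 265 (207 to 345). S100a8 stood at 5.62, 16150 and 8355 CPM, a ratio of 2874 (1514 to 6285). Krt6b, a keratin of activated epidermis, had no UMI in normal members and was at least 2818-fold higher in imiquimod members. The other 7 genes of highest ratio were S100a9, Cnfn, Sprr2d, Sprr1b, Ccl20, Stfa1 and Rbp2. Sprr2 and Stfa genes have near-identical copies and are uncertain for each. Lowest in imiquimod members were Serpina3b (481-fold, 163 to 2341), Cyp2g1 (352-fold, 150 to 1089), Paqr7 (114-fold, 64.8 to 224) and Hsd3b6 (77.2-fold, 32.1 to 243). Acacb was 70.7-fold lower (37.6 to 150) and Cyp17a1 33.9-fold lower (25.1 to 46.6), with Ces1d, Fam57b, Mettl7b and Panx3 between or near them.

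Summed over all members, the celastrol and imiquimod sets were close in sebaceous genes, of which the rule genes chose the cells. Clusters 2, 4 and 5 held 84 of 115 imiquimod members and 43 of 62 with celastrol, so both sets are mostly cells outside cluster 1. In cluster 1, with 8 cells each, summed Elovl6, Msmo1, Fa2h, Far2 and Elovl4 were higher with celastrol, and Scd1, Idi1, Plin2 and Fabp5 lower. The values below are over all members. Of 10468 genes, 4.49% were past 2-fold higher with celastrol and 4.71% lower (median -0.03). None of the 7 measured rule genes, the 13 other sebaceous genes or the 23 cholesterol genes passed 2-fold, with medians of 0.27, -0.06 and -0.16. Scd1 stood at 420.3 CPM with celastrol and 597 without, and Pparg at 17.3 and 14.7. Antimicrobial genes were lower in 10 of 24 and higher in 2 (median -0.39), epidermal activation genes lower in 4 of 21 (median 0.02) and cell cycle genes lower in 9 of 20 (median -0.95). Lcn2 was the gene of lowest ratio, at 88.2 against 788.9 CPM, 8.94-fold lower (7.84 to 10.2). Next were Fbp1, Unc93b1, Nrg1, Dut, Cbr2, Mfge8, Lgi2, Mcm3 and Spata24, from 6.16-fold down to 4.21-fold lower. With 10 CPM added to each side, Fbp1, Unc93b1, Lgi2 and Spata24 were no longer past 2-fold, with log2 ratios of -0.86, -0.71, -0.83 and -0.67, nor was Cbr2 by a mean of single cells (-0.94). Mfge8 turned to higher with celastrol when the top doublet scores were left out.

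Higher with celastrol were Rasd1 (8.61-fold, 6.78 to 11), Hbb-bs (7.77-fold, 4.23 to 15.2), Krt15 (7.19-fold, 5.60 to 9.33) and Igfbp3 (6.93-fold, 6.13 to 7.85), then Trps1, Zbtb20, Dbp, Hoxc8, Nat8l and Mfap4. Lcn2 and Krt15 differed likewise in other cells. Lcn2 stood at 274 CPM in imiquimod keratinocytes and 27 in those with celastrol, and at 2569 and 194 in fibroblasts. Krt15 stood at 58.5 and 716 CPM in keratinocytes. The 2 differences in members are therefore not particular to them. Leaving out cluster 6, which was led by fibroblast genes, changed the split of genes from 470 higher and 493 lower to 237 and 571. Without it Rasd1, Trps1 and Zbtb20 were no longer past 2-fold, with log2 ratios of 0.25, 0.11 and 0.86 against 3.11, 2.73 and 2.69, and Igfbp3 had 1.37 against 2.79.

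Within each treated library, members stood above upper follicle cells in sebaceous genes. Members were left out of the upper follicle cells, though 60 of 115 imiquimod members and 49 of 62 with celastrol had a UMI of both Krt79 and Cst6. The rule thus split these cells by sebaceous genes, so the sebaceous counts are descriptions. In the imiquimod library 8 of 13 other sebaceous genes were past 2-fold higher and none lower (median 1.31), where 2.64% of 11598 genes were higher and 3.57% lower. Soat1, Elovl3, Gpd1, Cidec, Scd1, Elovl6, Plin2 and Pparg were those 8. With celastrol 7 of 12 were higher and 1 lower (median 1.47), where 4.4% of 12718 genes were higher and 11.2% lower. Cholesterol genes were higher in 1 of 23 in the imiquimod library and in 8 of 23 with celastrol. Cell cycle genes were lower in 18 of 20 with celastrol (median -1.81) and in 3 of 20 with imiquimod alone (median -0.40). A few strong cells weigh on these sums. Soat1 was present in 17 of 115 imiquimod members and 13 of 62 with celastrol, and Elovl3 in 20 and 11.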

How the data were processed

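Single-cell 3' transcripts were measured in 3 libraries, 1 per group. The deposited values were raw counts of UMIs per gene and barcode. Their headers name Cell Ranger 4.0.0 as the program the authors ran. The submitters' processing notes list mm10 and GRCm38, and no source used here gives the other settings. In all, the libraries held 10565, 8236 and 6777 barcodes, and 77694770, 119275732 and 102610540 UMIs in kept cells, in the order normal, imiquimod, and imiquimod with celastrol.

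Counts were summed over cells and scaled to 1000000 UMIs (CPM), with exact 95% Poisson, Clopper-Pearson or conditional binomial intervals. A gene was measured with 20 UMIs over both sides, a side with none was set to 3 UMIs, and past 2-fold was the call. There was no test, since each group has 1 library. Lists were compared between libraries only with 20 members on each side. Doublet scores were computed with Scrublet in scanpy 1.11.5, and the cells marked as likeliest doublets (0.8% per 1000 cells) were kept. Clusters came from Leiden with leidenalg 0.10.2, without the 8 rule genes, and the scripts were tested on simulated data. Sequences came from RefSeq tables of GRCm38.p6.

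The members and lists were chosen with earlier results of these data known. Genes were named by rule: the 8 rule genes, per list the 4 of highest level in normal members and those of largest ratio past 2-fold, the 12 highest over non-members, and the 10 highest and 10 lowest of a comparison between libraries with 50 UMIs and a UMI in 25% of the members of the higher side. Other genes, such as Far1, Stmn1, and those of cluster 1 by library, were chosen after their values were seen. Values without the rule genes of a list, without 1 cell of cluster 1 or without the fibroblast-led cluster were added after seeing the data. Some genes that the rule names are not reported here. Sts, Il36a, Il36g and Krt85 did not match a symbol in the files.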

Additional observations from a re-analysis of the deposited data

How the results depend on the processing

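No paired analysis was possible because each group is 1 library. The share of members, imiquimod over normal, had a log2 ratio of 0.73 and reversed to -0.09 with at least 5 rule genes, -1.27 with at least 2 required genes, -3.62 with the rule genes at 0.5% of UMIs, -3.35 after thinning, and, in settings chosen after seeing the data, -3.81 for any cell at 0.5% and -2.35 for cluster 1 alone. Celastrol over imiquimod was -0.57 and moved to -1.05, -0.0035 and -0.1 (at least 5 genes, 2 required genes, any cell at 0.5%), and reversed to 0.32 for members at 0.5%, 0.32 for cluster 1 and 1.74 after thinning. Celastrol over normal was 0.16 and moved to -1.14, -1.27, -3.3, -3.91, -2.03 and -1.62 (at least 5 genes, 2 required genes, members at 0.5%, any cell, cluster 1, thinning).

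The other sebaceous genes, imiquimod over normal, had a median of -2.08 with at least 5 rule genes (-3.07 as reported), and normal members over keratinocytes 3.66 with 10 CPM added (7.67 as reported). Celastrol over imiquimod, a mean of single cells gave 0.43 for other sebaceous genes and -0.68 for cell cycle genes, and 10 CPM added gave -0.7 for the latter. Reversed single genes there were Mfge8, 1.06 without top doublet scores, and Scd1, 0.42 by a mean of single cells. Genes past 2-fold, higher and lower, were 1112 and 1029 with at least 5 rule genes and 628 and 801 with 10 CPM added for imiquimod over normal. For celastrol over imiquimod they were 968 and 440 with at least 3 rule genes, 738 and 482 by a mean of single cells, 221 and 268 at a 50 UMI minimum and 93 and 52 with 10 CPM added. Normal members over keratinocytes gave 796 and 605 with 10 CPM added. Lists between libraries could not be compared with 2 required genes, after thinning, at 0.5% of UMIs or in cluster 1, which left under 20 members in a library, nor celastrol over imiquimod with at least 5 rule genes.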
